A study of Mus musculus with 4 samples.

Results

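Skeletal muscle progenitors and myocytes made up 417 of the 44168 cells that passed the cell filter in single-cell RNA sequencing of the aorta-gonad-mesonephros region (AGM) of E11.5 mouse embryos. The AGM is the tissue around the dorsal aorta in which the first haematopoietic stem cells arise, and the somites that give rise to skeletal muscle lie beside it. All 4 libraries came from C57BL/6J embryos, and all cells had been sorted for CD31, the surface protein that the Pecam1 gene encodes and that marks endothelium and many blood cells. The sort then split them by TMRM brightness, which reports mitochondrial membrane potential, into MMPlow (2 libraries) and MMPhigh (2 libraries). The labels do not say whether the libraries came from separate litters or sorts, so p-values measure only the spread between these libraries. The labels name no transgene, treatment or unsorted control.

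Cells were kept with at least 2000 UMIs (unique molecular identifiers, 1 per captured transcript), at least 1000 detected genes and a mitochondrial share under 25%. A kept cell was called muscle where it held at least 1 of Myod1, Myf5 and Myog, at least 3 of Myod1, Myf5, Myog, Pax7, Actc1, Tnnt1, Tnni1, Des and Ttn, and at least 10 UMIs of these 9 genes per 10000 of its own. The 9 rule genes therefore chose the cells and are described without a test. The threshold did not fall in a gap: 35 of the 417 cells lay between 10 and 12 UMIs per 10000, and 46 cells that met the other conditions lay between 8 and 10. The lowest member held 10.1 and the highest cell left outside held 9.91 UMIs of the rule genes per 10000.

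Skeletal muscle of the trunk comes from somites. Progenitors there carry the paired-box factors Pax3 and Pax7. They commit to the muscle lineage under Myf5 and Myod1, basic helix-loop-helix factors that bind E-box DNA, and differentiate when Myog (myogenin) comes on. Differentiating myocytes leave the cell cycle, build sarcomeres, fuse through Mymk (myomaker) and Mymx (myomixer), and form acetylcholine receptors for nerve contact.

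The sequencing depth differed between libraries. The median filtered cell held 3145 UMIs in MMPlow 1, 3741 in MMPlow 2, 3685 in MMPhigh 1 and 24044.5 in MMPhigh 2. The muscle cells were deeper still, with medians of 6316.5, 6575, 3923 and 31895 UMIs in the same order, and MMPhigh 2 alone gave 5554118 of their 8118225 UMIs. MMPhigh 2 thus stood apart in depth. Shares of muscle cells with a UMI of a gene, where given by library, are therefore also given after thinning each cell to 2000 UMIs. Pairs of libraries shared 7 to 89 barcodes among filtered cells, no barcode was a muscle cell in more than 1 library, and 4 muscle barcodes matched a filtered barcode of another library. The caller Scrublet marked 2 of the filtered barcodes of MMPlow 1 and 0 of MMPhigh 1 as doublets, so it did not work in those 2 libraries; it marked 5 muscle cells in all.

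The rule chose cells that held Myod1, Myf5 or Myog, so detection of these factors is a description and no support for the identity of the cells. Macrophages of the same libraries, taken from cells outside the rule, are given beside them. Myog was detected in 79.2% of the muscle cells of MMPlow 1, 78.0% in MMPlow 2, 83.2% in MMPhigh 1 and 83.7% in MMPhigh 2. Macrophages were cells outside the rule that held at least 3 of a set of macrophage markers, and at least 50 UMIs of these per 10000. In them Myog was detected in 0.412%, 0.244%, 1.58% and 1.78%, at median depths of 3994, 5763, 4888 and 22272 UMIs. After thinning, Myog was found in 62.5%, 56.0%, 68.1% and 54.8% of muscle cells, so that MMPhigh 2 went from the highest share to the lowest. Myod1 was found in 38.9%, 35.2%, 48.7% and 63.7% of muscle cells, and in at most 0.547% of the macrophages of any library. Thinned, its shares were 19.4%, 14.3%, 31.9% and 24.4%, with MMPhigh 1 the highest. Myf5, which comes on before Myod1 in most trunk muscle, was found in 27.8%, 41.8%, 25.2% and 60.7%. Its share was highest in the deep MMPhigh 2 library, and after thinning it was 5.56%, 19.8%, 12.6% and 9.63%. All 3 factors were found together in 69 cells, Myog without the other 2 in 122, Myf5 alone in 47 and Myod1 alone in 20.

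Structural genes of the rule were broadly detected. Tnnt1, the slow skeletal troponin T, had a UMI in 91.7%, 93.4%, 87.4% and 100% of muscle cells, against 16.0%, 16.6%, 21.3% and 39.3% of macrophages. After thinning the shares for Tnnt1 were 76.4%, 76.9%, 71.4% and 77.0%, against 9.05%, 6.60%, 7.11% and 4.79%. Actc1, the actin of embryonic striated muscle, was found in 79.2%, 74.7%, 83.2% and 83.0%, and thinned in 63.9%, 65.9%, 69.7% and 64.4%. Ttn, which encodes the spring protein titin, was found in 81.9%, 78.0%, 61.3% and 87.4%, and thinned in 68.1%, 59.3%, 46.2% and 58.5%. MMPhigh 1 had the lowest share of Ttn before and after thinning. Des, the intermediate filament desmin, was found in 61.1%, 58.2%, 52.1% and 91.1% and, thinned, in 31.9%, 27.5%, 28.6% and 31.1%, so that its higher share in MMPhigh 2 was not seen at equal depth. Pax7, which marks progenitors, was found in 29.2%, 27.5%, 15.1% and 54.8%. Thinned, it was found in 18.1%, 12.1%, 4.20% and 14.1%, so that MMPhigh 2 no longer had the highest share and MMPhigh 1 still had the lowest. On RefSeq's mouse assembly of the same build, Myog lies at chr1:134290004-134292548, Myod1 at chr7:46376474-46379092 and Myf5 at chr10:107482908-107486927.

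Many of the 417 barcodes also held transcripts of another cell type. Calling a muscle cell mixed where endothelial, macrophage, erythroid or neural markers reached 20 UMIs per 10000, a limit chosen after the data were seen, gave 10 of 72 cells in MMPlow 1, 12 of 91 in MMPlow 2, 58 of 119 in MMPhigh 1 and 36 of 135 in MMPhigh 2, or 116 in all (27.8%). The kind differed by gate. All 18 cells mixed with endothelial markers came from MMPlow (6 and 12 cells). All 45 mixed with macrophage markers came from MMPhigh (40 and 5 cells), as did 51 of the 54 mixed with neural markers (19 and 32 cells, against 3 in MMPlow 1). The mixed cells of MMPhigh 2 were deep, with a median of 60764 UMIs against 26111 in the other muscle cells of that library, while those of MMPhigh 1 were shallow, at 3256.5 against 5471. Of the mixed cells 92.2% held Myog, against 77.4% of the other 301. The tests across genes that follow are therefore given with and without them, while detection of the rule genes by Myog, promoter motifs and likeness to Myog are given with all muscle cells.

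**Figure D1:**
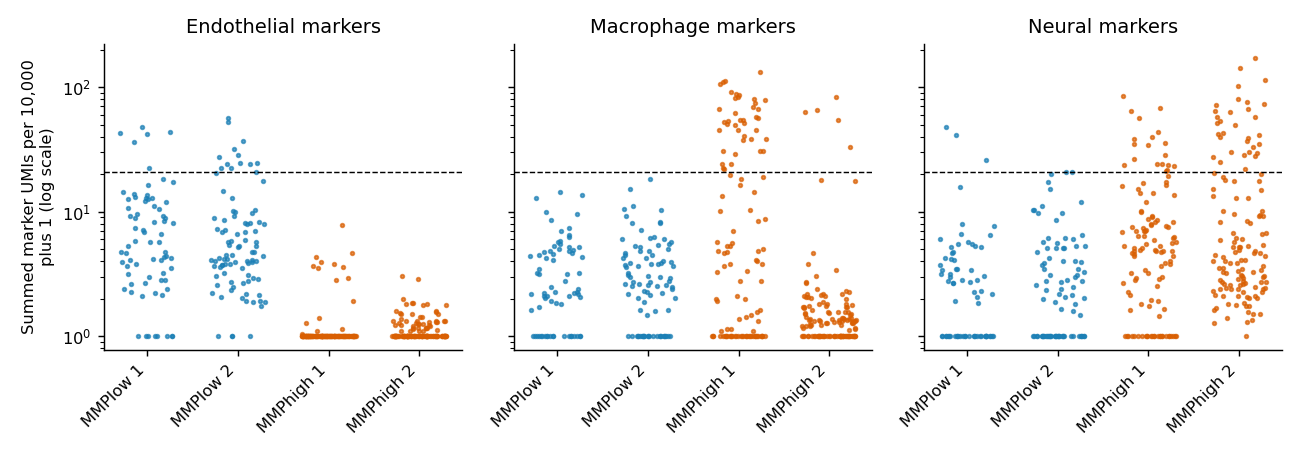
Summed UMIs of endothelial, macrophage and neural markers per 10000 UMIs, plus 1, on a log axis; each point is 1 muscle cell and the dashed line is the limit of 20 UMIs per 10000 (drawn at 20 plus 1). Points above the line in the endothelial panel belong to the MMPlow libraries (18 cells) and those in the macrophage panel to the MMPhigh libraries (45 cells).

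Transcripts of Pecam1, the gene of CD31, were not detected in most muscle cells, and the protein was not measured. Pecam1 had a UMI in 37.5% and 33.0% of muscle cells of the MMPlow libraries and in 1.68% and 8.89% of those of the MMPhigh libraries. Mesenchyme cells of the same libraries held it in 25.9%, 25.2%, 2.66% and 3.90%, at median depths of 4252, 4584, 11433.5 and 22190 UMIs. The share was thus higher in muscle than in mesenchyme in 3 of the 4 libraries. After thinning, Pecam1 was found in 11.1% and 15.4% of MMPlow muscle cells and in 14.5% and 11.8% of MMPlow mesenchyme cells, so that the order differed between the 2 libraries. No thinned MMPhigh muscle cell held it, against 0.296% and 0.519% of MMPhigh mesenchyme cells. Macrophages of MMPlow 1, MMPlow 2, MMPhigh 1 and MMPhigh 2 held Pecam1 in 28.8%, 36.7%, 26.4% and 53.1% of cells. Thinned, these shares were 14.8%, 16.1%, 7.42% and 9.99%. Cdh5, an endothelial cadherin, had a UMI in 26.4% and 31.9% of MMPlow muscle cells and in 27.2% and 27.9% of MMPlow mesenchyme cells, and thinned in 8.33% and 10.99% against 15.7% and 14.0%. The mixed cells carried part of these transcripts. In MMPlow muscle, Pecam1 stood at 84.7 and 79.6 CPM (UMI counts scaled to the summed UMIs of the cells) with all cells and at 59.4 and 38.8 CPM without the mixed ones, and Cdh5 went from 55.8 and 71.1 to 33.6 and 42.0 CPM. The part of free RNA in the rest was not tested. The labels do not say how cells without CD31 transcripts came through the sort, and this was not tested.

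Genes of striated muscle that the rule did not use were high in the same cells. Relative to mesenchyme cells of the same library (connective-tissue precursors, chosen by at least 3 markers such as Col1a1 and Pdgfra and no Myod1, Myf5 or Myog), levels in muscle cells were higher in all 4 libraries for 25 of 25 sarcomere genes. This compares a class with cells chosen to lack its factors, and is a description with no test, and mixed cells were left out of it. The same held for 14 of 15 differentiation and fusion genes, 15 of 19 genes of the neuromuscular synapse and of excitation-contraction coupling, and 12 of 19 somite and progenitor genes. Over all 23896 genes with a UMI, 7.71% were higher and 26.6% lower in all 4 libraries. Mymk stood at 114, 76.0, 120 and 83.4 CPM in muscle and at 0, 0.572, 0 and 0.211 CPM in mesenchyme. Pax3 stood at 103, 128, 166 and 127 CPM in muscle against 23.5, 20.3, 16.4 and 18.4 CPM in mesenchyme. The 9 cardiac markers summed to 20.7, 17.8, 4.93 and 24.0 CPM in muscle cells, below their sums in mesenchyme of 94.4, 87.9, 104 and 69.8 CPM. Of these genes 4 were lower in all 4 libraries, and Myh6, the alpha myosin heavy chain of heart, was higher in all 4, at 2.58 to 9.70 CPM against 0.143 to 0.405 CPM. Met and Lbx1, which act in muscle precursors that migrate to the limbs, were at lower levels. Met was at 9.68 to 12.9 CPM, above mesenchyme (4.32 to 7.01 CPM) and macrophages (3.22 to 6.18 CPM) in all 4 libraries. Lbx1 was at 0 to 2.58 CPM, against 0 to 1.05 CPM in mesenchyme.

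Genes of the cell cycle and Hox genes were more often lower than higher in muscle, to be read against the 26.6% of all genes that were lower and the 7.71% that were higher. Of 24 genes of the G2 and M phases, 17 were lower in muscle than in mesenchyme in all 4 libraries and 0 higher; of 24 S phase genes 14 were lower and 1 higher. Of 39 Hox genes, the homeobox factors that set position along the body axis, 19 were lower and 0 higher. The ribosomal protein genes, like the sarcomere genes, were mostly higher, in 75 of 79 cases, and 0 were lower.

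Muscle cells took a larger share of the filtered cells of the MMPhigh gate. They were 72 of 16700 cells (0.431%, exact binomial 95% interval 0.337 to 0.543) in MMPlow 1, 91 of 19579 (0.465%, 0.374 to 0.570) in MMPlow 2, 119 of 4403 (2.70%, 2.24 to 3.23) in MMPhigh 1 and 135 of 3486 (3.87%, 3.26 to 4.57) in MMPhigh 2. The intervals cover counting error only. Both MMPhigh libraries lay above both MMPlow libraries, with means of 3.29% ± 0.827 (SD, n = 2) and 0.448% ± 0.0238 (SD, n = 2), a ratio of 7.34. The exact two-sided permutation test gave p = 0.333, the smallest that 2 against 2 libraries allow.

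The order of the gates was the same at equal depth. After thinning every cell to 2000 UMIs, 0.275%, 0.281%, 1.93% and 2.09% of cells met the rule, a ratio of 7.23. With cells of at least 5000 UMIs only, the shares were 1.14%, 0.987%, 2.83% and 3.94%, and the ratio was 3.18. Without mixed cells they were 0.371%, 0.403%, 1.39% and 2.84%, a ratio of 5.45. The share depends on which other cells the gate let through. Set against mesenchyme cells, muscle cells numbered 6.87 and 6.91 per 100 in MMPlow and 35.2 and 35.1 per 100 in MMPhigh. Without the mixed muscle cells they numbered 5.92 and 6.00 against 18.0 and 25.7 per 100, so that the near-equal MMPhigh values included the mixed cells. Set against macrophages the order was the reverse, with 29.6 and 22.2 muscle cells per 100 in MMPlow and 18.8 and 18.5 in MMPhigh, and 25.5 and 19.3 against 9.64 and 13.5 without the mixed ones. The direction of the gate difference thus depended on the class that muscle was set against.

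**Figure D2:**
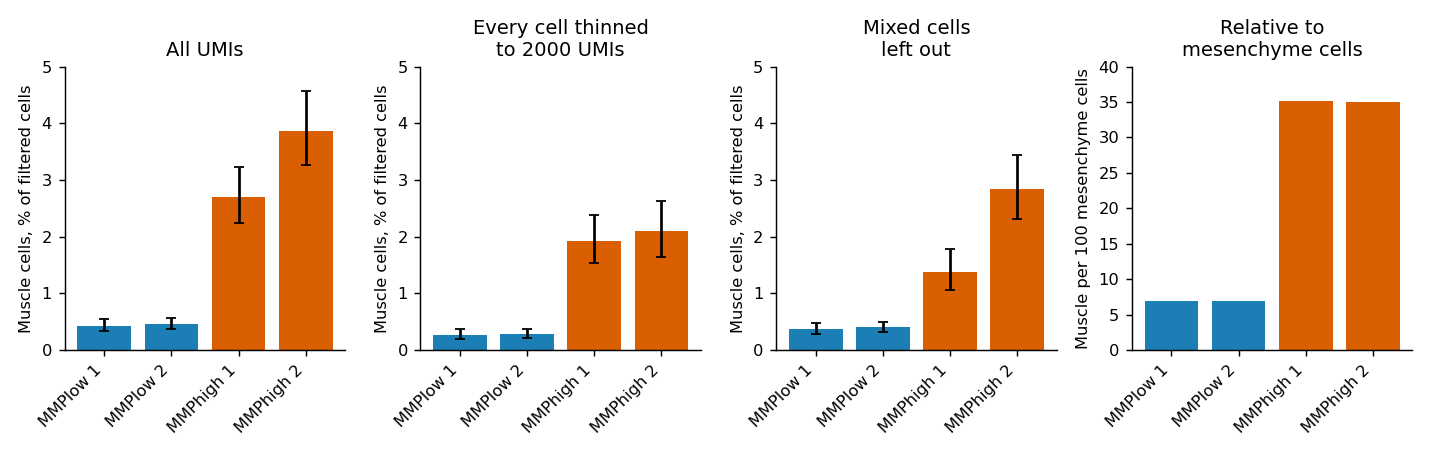
Muscle cells as a percentage of filtered cells in each library from all UMIs, from cells thinned to 2000 UMIs and without mixed cells (bars, with exact binomial 95% intervals), and all muscle cells per 100 mesenchyme cells. The MMPhigh libraries lie above the MMPlow libraries in each panel, at 2.70% and 3.87% against 0.431% and 0.465% in the first.

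The muscle cells could be ordered by Myog, since 340 of the 417 held at least 1 Myog UMI and 77 held none. The positive cells numbered 57, 71, 99 and 113 in MMPlow 1, MMPlow 2, MMPhigh 1 and MMPhigh 2, and the negative cells 15, 20, 20 and 22. Their median depths were 5785, 6479, 4042 and 33423 UMIs for the positive and 8389, 8013.5, 3648.5 and 26105 UMIs for the negative cells, so neither group was deeper throughout. A cell with no Myog UMI can still express the gene below detection. Because the rule asks for Myod1, Myf5 or Myog, each negative cell had to hold Myod1 or Myf5, and values of these genes follow in part from the rule. A negative cell also had to reach 3 rule genes without Myog, so values of the other rule genes, Pax7 among them, follow in part from it too.

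Among the rule genes, Pax7 and Myf5 were more often found in Myog-negative cells, and Actc1, Tnni1, Des and Ttn in Myog-positive cells. Pax7 was found in 73.3%, 60.0%, 25% and 90.9% of the negative cells and in 17.5%, 18.3%, 13.1% and 47.8% of the positive cells, and thinned in 40%, 40%, 10% and 31.8% against 12.3%, 4.23%, 3.03% and 10.6%. Actc1 was found in 46.7%, 40%, 50% and 50% of the negative and in 87.7%, 84.5%, 89.9% and 89.4% of the positive cells, and thinned in 26.7%, 30.0%, 40% and 9.09% against 73.7%, 76.1%, 75.8% and 75.2%. For Tnni1, the slow skeletal troponin I, the shares were 20%, 30.0%, 20% and 27.3% against 57.9%, 67.6%, 51.5% and 76.1%, and thinned 6.67%, 20%, 5% and 13.6% against 49.1%, 45.1%, 34.3% and 43.4%. Tnnt1 did not keep one order, at 80.0%, 100%, 90% and 100% of the negative and 94.7%, 91.5%, 86.9% and 100% of the positive cells. Thinned, its shares were 46.7%, 70%, 55.0% and 77.3% against 84.2%, 78.9%, 74.7% and 77.0%. The order of the groups was the same in all 4 libraries for Pax7, Actc1, Tnni1, Des and Ttn, before and after thinning. Myf5 was more often found in the negative cells in all 4 libraries, but at 9.09% against 9.73% in MMPhigh 2 after thinning. Myod1 was more often found in the positive cells in 3 of 4 libraries, and in all but MMPlow 1 after thinning.

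**Figure D3:**
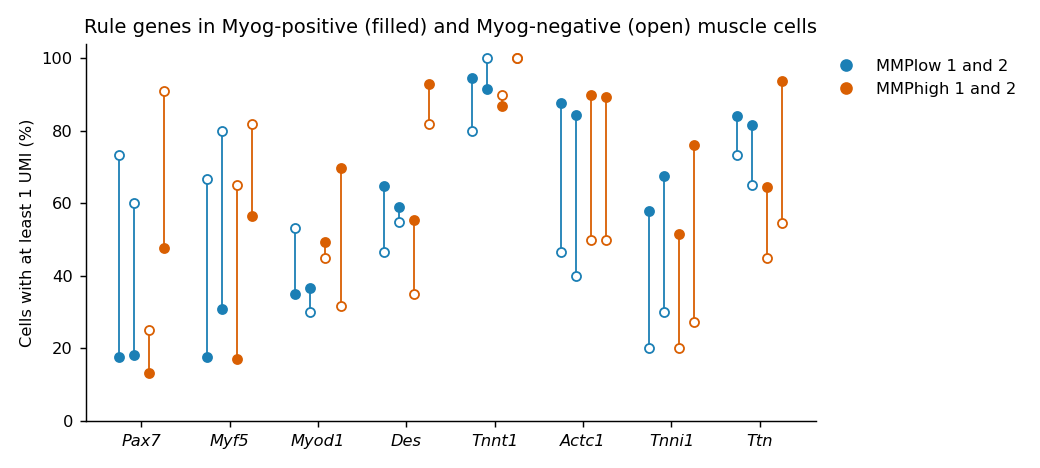
Percentage of Myog-positive (filled) and Myog-negative (open) muscle cells with at least 1 UMI of 8 rule genes, 1 pair of points per library, MMPlow in blue and MMPhigh in orange. Open points lie above filled points for Pax7 and Myf5 and below them for Actc1 and Tnni1 in all 4 libraries; shares are before thinning.

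Between Myog-positive and Myog-negative cells, 19 of 21 tested sarcomere genes and 9 of 13 genes of differentiation, cell cycle exit and fusion rose, 11 of 23 S phase genes fell, and 4 of 10 progenitor genes fell while 1 rose. UMIs were summed over the positive and over the negative cells of each library and compared with edgeR's quasi-likelihood test with the library as a block and Benjamini-Hochberg adjustment over the 6900 genes tested. In such sums, fewer cells with a transcript and fewer copies per cell cannot be told apart. The test called 501 genes (7.26%) with an adjusted p below 0.05, and 220 of 5069 (4.34%) without MMPhigh 2, which gave most of the UMIs. In Myog-positive cells 344 of the 501 were higher (4.99%) and 157 lower (2.28%). Without the mixed cells it called 410 of 6018 genes (6.81%), 299 higher (4.97%) and 111 lower (1.84%); of the 441 called genes that this smaller fit also tested, 302 were called there. The split itself rests on detection. With cells divided by Myog after thinning, 406 genes were called, but only 211 of the 496 called genes tested there were called again and 435 kept their direction. The median log2 fold of the genes called higher went from 1.58 to 0.62, and that of the genes called lower from -1.01 to -0.68.

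Of the 25 sarcomere genes outside the rule, 21 passed the filter on low counts and 19 rose, against 4.99% of all genes tested. The median log2 fold was 3.18, against -0.01 over all genes tested. A gene that passed this filter only through the positive cells had to differ, so the count is a description of the list. Myh3, the embryonic myosin heavy chain, stood at 44.0, 46.1, 9.83 and 6.89 CPM in the negative and at 778, 479, 486 and 374 CPM in the positive cells of MMPlow 1, MMPlow 2, MMPhigh 1 and MMPhigh 2. It rose by 4.58 ± 0.30 on the log2 scale (± SE, edgeR adjusted p = 3.08e-10), and the groups did not overlap. Tnnt2, the troponin T of heart and embryonic skeletal muscle, stood at 17.6, 57.6, 9.83 and 12.1 against 616, 476, 447 and 260 CPM, a log2 fold of 4.18 ± 0.28 (edgeR adjusted p = 1.47e-10). Actn2, which anchors actin at the Z disc, was at 17.6, 28.8, 9.83 and 22.4 against 205, 115, 114 and 111 CPM (log2 fold 2.58). Without mixed cells 15 of 22 sarcomere genes rose, and the list's median was 3.24. Mylpf, a fast myosin light chain, was at 52.8, 294, 49.2 and 20.7 against 1629, 1674, 1288 and 756 CPM. Its log2 fold was 4.03 ± 0.54 with all muscle cells (edgeR adjusted p = 0.0199) and 4.31 ± 0.67 without the mixed cells (0.0572). Neb, Tnnc1, Tnnc2 and Mybpc1 likewise passed the threshold only with all cells, while their log2 folds went from 2.91 to 3.17, 3.65 to 4.21, 3.85 to 4.22 and 1.498 to 1.88 (adjusted p without mixed cells 0.0585, 0.0623, 0.0800 and 0.0642). These 5 estimates were thus no smaller without the mixed cells, and their SEs were larger. Tpm1, a tropomyosin also made in mesenchyme, was tested but not called, at 1717, 1971, 1593 and 1727 against 1885, 1931, 1228 and 1157 CPM.

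Most tested regulators of differentiation and fusion also rose. Of 15 listed genes 13 were tested and 9 rose (median log2 fold 1.69), and the same count of 9 of 13 rose without mixed cells. Over all tested genes 4.99% rose with all muscle cells and 4.97% without the mixed ones. The limit of the low-count filter given for the sarcomere genes holds for this count too. Cdkn1a, the cyclin-dependent kinase inhibitor p21, stood at 35.2, 63.4, 9.83 and 5.17 CPM in the negative and at 519, 428, 454 and 328 CPM in the positive cells (log2 fold 4.25 ± 0.40, edgeR adjusted p = 6.06e-05). Cdkn1c, the related inhibitor p57, was at 2624, 3186, 2920 and 2941 against 5521, 5338, 5782 and 3773 CPM (log2 fold 0.82 ± 0.15). Every positive sum lay above every negative sum for both inhibitors. Mymx had 2 UMIs over all Myog-negative cells. In the positive cells it stood at 159, 147, 201 and 166 CPM, and the ratio of the summed counts was 82.5 (95% counting interval 22.8 to 682). Mymk, its partner in fusion, was at 26.4, 40.3, 0 and 18.9 against 130, 86.8, 74.5 and 74.4 CPM (log2 fold 2.01 ± 0.34). Mef2c, a cofactor of the muscle factors, was at 185, 248, 59.0 and 131 against 1113, 751, 674 and 690 CPM (log2 fold 2.40 ± 0.21). Cdh15, muscle cadherin, was not called, at 61.6, 57.6, 138 and 89.5 against 119, 92.5, 105 and 109 CPM.

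Synapse, calcium-handling and metabolic genes gave smaller sets. Over all tested genes 4.99% rose with all muscle cells and 4.97% without the mixed ones. A gene that passed the low-count filter only through the positive cells had to differ, so these counts describe the lists. Of 19 synapse and excitation-contraction genes 12 were tested and 7 rose, namely Chrna1, Casq2, Stac3, Atp2a1, Musk, Ryr1 and Cacna2d1; without mixed cells Casq2, Stac3, Atp2a1 and Ryr1 rose (4 of 10), Cacna2d1 was not called (adjusted p = 0.0646), and Chrna1 and Musk did not pass the low-count filter. Chrna1, the alpha subunit of the muscle acetylcholine receptor, had 2 UMIs in the negative cells and stood at 72.9, 24.5, 27.4 and 33.6 CPM in the positive cells, a ratio of 16.4 (4.49 to 136). Chrng, the fetal gamma subunit, and Chrnb1 were tested and not called. Ryr1, the calcium release channel of skeletal muscle, was at 44.0, 51.9, 49.2 and 51.7 against 130, 106, 108 and 118 CPM (log2 fold 1.25 ± 0.25). Ryr3 was not called, at 35.2, 23.1, 9.83 and 46.5 against 37.8, 26.4, 14.9 and 44.8 CPM. All 4 of the 12 metabolic genes that could be tested, Fabp3, Pgam2, Eno3 and Ckb, rose with all muscle cells and without the mixed ones. Eno3, the muscle enolase of glycolysis, stood at 44.0, 69.1, 78.7 and 94.7 against 230, 177, 198 and 171 CPM. Dmd, which encodes dystrophin, rose by 1.35 ± 0.26 on the log2 scale with all muscle cells (edgeR adjusted p = 0.000713) and was not called without the mixed cells (0.0934).

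Of the 19 somite and progenitor genes 10 were tested, with a median log2 fold of -0.73. Msc, Tcf15, Meox1 and Eya4 fell, Eya2 rose, and the other 5 were not called. Over all tested genes 2.28% fell and 4.99% rose. Every Myog-negative cell had to hold Myod1 or Myf5, so genes that go with these factors may follow in part from the rule. That part was not tested. Msc (musculin), a repressor of the same helix-loop-helix family found in muscle precursors, stood at 26.4, 34.6, 49.2 and 119 CPM in the negative and at 5.40, 9.44, 4.71 and 9.65 CPM in the positive cells, a log2 fold of -3.22 ± 0.38 (edgeR adjusted p = 1.33e-06). Tcf15 (paraxis), a somite factor, was at 96.9, 109, 138 and 31.0 against 54.0, 58.5, 20.4 and 10.3 CPM (log2 fold -1.45). The 4 that fell were lower in the positive cells of every library, although the groups overlapped across libraries for Tcf15. Without mixed cells Msc, Eya1 and Tcf15 fell and Eya2 was not called (adjusted p = 0.172).

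Signalling genes split within their lists, where 4.99% of all tested genes rose and 2.28% fell. Of 17 Notch pathway genes, a pathway that holds progenitors undifferentiated, 8 were tested. Hey1, a Notch target, was at 44.0, 28.8, 29.5 and 63.7 CPM in the negative and 13.5, 18.9, 9.41 and 10.7 CPM in the positive cells (log2 fold -1.95 ± 0.39). The receptor Notch3 fell by 1.31 ± 0.24 on the log2 scale. Hes6, which antagonises Notch target repressors, was at 70.4, 40.3, 108 and 70.6 against 251, 153, 212 and 199 CPM (log2 fold 1.55 ± 0.23), and Rbpj, the DNA-binding protein of the pathway, rose by 0.87 ± 0.20. The same 4 genes were called without mixed cells. Of the 22 growth factor and patterning genes 14 were tested, and Fgf5, Boc (a hedgehog co-receptor) and Gas1 fell; Gas1 was not called without mixed cells. Mstn (myostatin), which limits muscle growth, was at 0, 34.6, 19.7 and 17.2 against 72.9, 45.3, 34.5 and 32.8 CPM. It was called higher without the mixed cells (edgeR adjusted p = 0.0384) but not with all muscle cells (0.0970).

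Imprinted genes, expressed from 1 parental copy, went both ways. All 14 listed genes were tested. Ndn, Mirg, Meg3 and Cdkn1c rose, against 4.99% of all tested genes, and Peg10 and Mest fell, against 2.28%. Ndn (necdin), a growth suppressor, was at 35.2, 98.0, 59.0 and 51.7 CPM in the negative and 211, 202, 118 and 131 CPM in the positive cells (log2 fold 1.43 ± 0.25). Mest was at 986, 847, 885 and 856 against 556, 770, 319 and 431 CPM (log2 fold -0.81 ± 0.19). For both genes the groups did not overlap. Without mixed cells Mest and Plagl1 fell and Peg10 was not called (adjusted p = 0.0652); Plagl1 had an adjusted p of 0.0654 with all cells.

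The largest changes over all tested genes were mixed in kind. By a rule of size (adjusted p under 0.05, at least 50 CPM in the higher group, the same direction in all 4 libraries), the 10 largest rises were Mymx, Srrm4, Adarb2, Chrm3, Tmem178b, Myh3, Sorbs2, Lmod3, Cadps and Ccser1. Chrm3, a muscarinic acetylcholine receptor, was at 17.6, 23.1, 0 and 0 against 243, 168, 258 and 169 CPM. Lmod3, a nucleator of thin filaments, had 2 UMIs in the negative cells, a ratio of 20.2 (5.55 to 168). Both were called without mixed cells too. Srrm4, a splicing factor of neurons, had 3 UMIs in the negative cells and stood at 35.1, 28.3, 196 and 194 CPM in the positive cells, highest in the libraries with most neural-mixed cells. Srrm4, Adarb2, Sorbs2 and Ccser1 did not pass the low-count filter without mixed cells, and Cadps was not called there (adjusted p = 0.168). Summed neural markers were 185, 271, 570 and 219 CPM in the negative and 562, 294, 2128 and 2996 CPM in the positive cells. Of the 8 tested neural markers 3 rose (Nefl, Stmn3 and Dcx), against 4.99% of all tested genes. The part of the mixed cells in these 5 genes was not tested beyond leaving them out. With cells divided by Myog after thinning, Srrm4, Cadps and Ccser1 reversed and were lower in the positive cells.

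The 10 largest falls were Msc, Chrdl1, Foxd2os, Kcnab1, Moxd1, Fgf10, Fap, Islr, Fgf5 and Kcne1l. Fap, a surface protease of fibroblasts, was at 211, 317, 148 and 308 CPM in the negative and 29.7, 75.5, 36.1 and 76.8 CPM in the positive cells (log2 fold -2.10 ± 0.21, edgeR adjusted p = 1.23e-07). Fgf5, a growth factor, was at 44.0, 80.7, 78.7 and 87.8 against 16.2, 20.8, 18.0 and 25.7 CPM. Chrdl1, a BMP antagonist, was at 26.4, 34.6, 88.5 and 58.5 against 2.70, 5.66, 6.27 and 8.65 CPM. All 10 were lower in each library, and 9 of them were called without mixed cells, Fgf10 being the exception (adjusted p = 0.0646). Summed mesenchyme markers were 370, 363, 246 and 405 CPM in the negative and 292, 228, 208 and 291 CPM in the positive cells; 4 of the 11 markers were tested and 0 called.

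**Figure D4:**
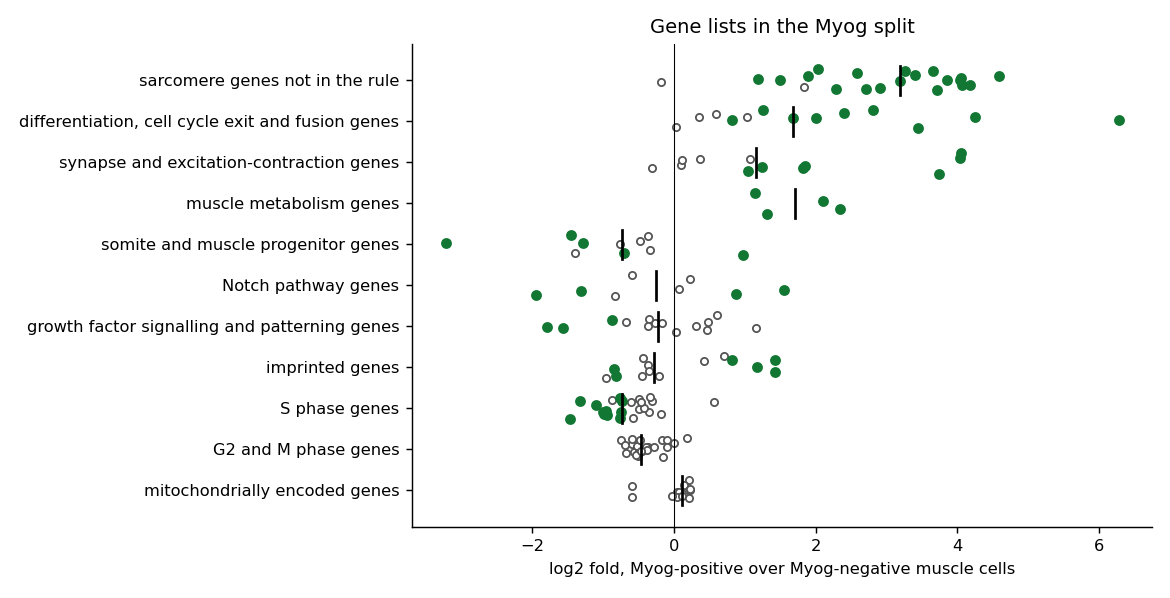
Log2 fold of each tested gene of 11 lists between Myog-positive and Myog-negative muscle cells; filled points passed the edgeR test at an adjusted p under 0.05, open points did not, and bars are list medians. The sarcomere list has 19 of 21 genes called higher with a median of 3.18, and the S phase list 11 of 23 called lower.

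Some DNA replication genes fell with Myog. Of 24 S phase genes 23 were tested and 11 fell (median log2 fold -0.73), among them Mcm6, a subunit of the replicative helicase, at 159, 196, 128 and 219 against 75.6, 117, 68.2 and 90.9 CPM. Without mixed cells 7 of 22 fell. Over all tested genes 2.28% fell with all muscle cells and 1.84% without the mixed ones. Of 24 G2 and M phase genes 23 were tested and 0 were called by edgeR, with a median log2 fold of -0.46. Summed over both lists, cell cycle UMIs were 47.0, 45.9, 44.2 and 52.2 per 10000 in Myog-negative and 34.1, 36.1, 31.3 and 30.9 per 10000 in Myog-positive cells. The log2 ratios were -0.47, -0.34, -0.50 and -0.76, with a mean of -0.52 ± 0.17 (SD, n = 4). The positive cells were lower in 4 of 4 libraries, and the exact two-sided sign-flip test gave p = 0.125, the smallest that 4 pairs allow. The G2 and M phase genes alone were not lower in MMPlow 2, at 18.1 per 10000 in the positive and 18.0 in the negative cells, whereas the S phase genes were lower in the positive cells of all 4 libraries.

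Promoters of the responding genes are shown because the muscle factors bind E-boxes, written CANNTG, with CAGCTG a form bound by Myod1 and Myog. Sequences are from RefSeq on GRCm38.p6, from 250 bases before to 50 bases after the start of the gene, on the gene's strand and 5′ to 3′. Capitals mark every CANNTG, which reads the same on both strands in form. Myog lies at chr1:134289754-134290053 on the plus strand, Chrna1 at chr2:73580289-73580588 on the minus strand, Tnnt2 at chr1:135836084-135836383 on the plus strand and Mylpf at chr7:127211358-127211657 on the plus strand. For Tnnt2, which has 2 starts in the table, the first listed start that holds CAGCTG is shown.
Myog: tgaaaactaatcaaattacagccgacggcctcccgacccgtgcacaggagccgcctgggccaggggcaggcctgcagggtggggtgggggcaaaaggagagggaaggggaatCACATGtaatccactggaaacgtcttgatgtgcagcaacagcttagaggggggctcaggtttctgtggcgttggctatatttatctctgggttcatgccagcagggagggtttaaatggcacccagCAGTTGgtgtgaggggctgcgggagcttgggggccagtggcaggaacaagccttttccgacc
Chrna1: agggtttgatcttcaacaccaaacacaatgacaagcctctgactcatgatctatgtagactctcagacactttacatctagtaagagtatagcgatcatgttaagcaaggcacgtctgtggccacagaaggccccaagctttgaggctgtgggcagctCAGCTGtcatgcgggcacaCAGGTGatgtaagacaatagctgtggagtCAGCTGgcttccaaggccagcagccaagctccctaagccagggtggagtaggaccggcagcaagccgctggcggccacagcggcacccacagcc
Tnnt2: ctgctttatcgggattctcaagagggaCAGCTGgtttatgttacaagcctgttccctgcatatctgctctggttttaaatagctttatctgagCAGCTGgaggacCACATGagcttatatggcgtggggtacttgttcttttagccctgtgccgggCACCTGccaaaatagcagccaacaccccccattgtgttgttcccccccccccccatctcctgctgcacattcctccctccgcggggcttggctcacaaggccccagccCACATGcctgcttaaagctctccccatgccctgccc
Mylpf: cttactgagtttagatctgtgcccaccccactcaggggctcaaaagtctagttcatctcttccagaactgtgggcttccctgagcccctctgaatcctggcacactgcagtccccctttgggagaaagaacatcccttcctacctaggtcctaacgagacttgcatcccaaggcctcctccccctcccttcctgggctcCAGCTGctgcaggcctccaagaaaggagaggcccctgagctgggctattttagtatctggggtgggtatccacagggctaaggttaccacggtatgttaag
In Chrna1 a CAGCTG begins 92 and another 44 bases before the start, in Tnnt2 223 and 157 bases before, and in Mylpf 51 bases before. Myog holds CACATG 138 bases and CAGTTG 12 bases before its start and no CAGCTG in this window. The 4 genes were chosen for display after their values were seen.

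Over all 32851 promoters in the table, 16.3% held CAGCTG. The promoter table matched 258 of the 344 genes that rose with Myog, and 83 of these (32.2%) held CAGCTG. It matched 118 of the 157 that fell, of which 21 (17.8%) did, and 5479 tested genes, of which 16.4% did. Of the 18 sarcomere genes matched, 6 (33.3%) held it. The looser CANNTG was present in 72.3% of all promoters. By gene, it was present for 63.6% of the genes tested, 74.8% of those that rose and 58.5% of those that fell. A match of letters is not a binding site, and none of these data measure binding.

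Likeness to Myog was also measured across single cells. Over the 417 cells thinned to 2000 UMIs, the highest Spearman correlations with Myog among 6252 genes seen in at least 20 cells were those of Cdkn1a (0.548), Acta2 (0.507), Mymx (0.447), Spg21 (0.439), Cdkn1c (0.417), Tpm2 (0.413), Mylpf (0.3955), Svbp (0.371), Tnnt2 (0.361) and Myl1 (0.356). Cdkn1a and Cdkn1c encode the cyclin-dependent kinase inhibitors above, Mymx the fusion protein, and Acta2, Tpm2, Mylpf, Tnnt2 and Myl1 contractile proteins, while Spg21 and Svbp were in none of the lists. The cells share 4 libraries and differ in state, so these are descriptions without a test. Acta2, an actin best known from smooth muscle, was at 106, 219, 49.2 and 220 CPM in Myog-negative and 1024, 727, 852 and 680 CPM in Myog-positive cells (log2 fold 2.36 ± 0.36, edgeR adjusted p = 0.0100). Without mixed cells its log2 fold was 2.65 ± 0.56 and the adjusted p was 0.114.

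Between the gates, most gene calls within muscle were lost when the mixed cells were left out. Most were also lost with every muscle cell thinned to 2000 UMIs and the mixed cells kept, at 56 of 4281 genes (1.31%). UMIs were summed over the muscle cells of each library and 2 MMPhigh sums were compared with 2 MMPlow sums by edgeR. With all muscle cells, 1025 of 10079 genes (10.2%) were called, 652 higher (6.47%) and 373 lower (3.70%) in MMPhigh. A gene that passed the low-count filter only through 1 gate had to differ, so the list counts between gates below are descriptions. Among Myog-positive muscle cells alone, 941 of 9610 (9.79%) were called, 568 higher (5.91%) and 373 lower (3.88%). Without the 116 mixed cells, 36 of 8045 genes (0.447%) were called, 0 higher and 36 lower (0.447%), while 612 had an unadjusted p under 0.05. Of the genes called higher with all cells, 383 were tested without the mixed cells, and their median log2 fold went from 1.15 to 0.47. For the 276 genes called lower it went from -1.31 to -1.04. Leaving out MMPhigh 1 or MMPhigh 2 as well gave 265 calls (110 higher) and 316 calls (151 higher) without mixed cells, and leaving out MMPlow 1 or MMPlow 2 gave 2 and 6, all lower. In these 4 fits one gate has a single library, which is assumed to vary like the 2 libraries of the other gate. With the replicate number as a block, 111 genes were called without mixed cells, 21 of them higher, so that the count of 0 higher depends on the fit.

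The 10 largest rises in MMPhigh by the rule of size were Robo3, Cntn2, Sst, Nhlh2, Mapk10, Sgcz, Pax2, Myt1l, Myt1 and Nrcam, most of them genes of neurons. Robo3, a receptor of commissural axons, had 0 UMIs in MMPlow muscle and stood at 102 and 80.5 CPM in MMPhigh muscle, at least 33.5-fold higher against a floor of 3 UMIs over the group. In MMPhigh muscle cells that were not mixed it stood at 1.64 and 3.67 CPM. Nhlh2, a neuronal helix-loop-helix factor, was at 2.07 and 1.42 CPM in MMPlow and at 125 and 110 CPM in MMPhigh, and at 9.87 and 20.7 CPM in the MMPhigh cells that were not mixed. None of the 10 passed the low-count filter without mixed cells. Of the 11 neural markers 8 were tested and 7 rose with all cells, against 6.47% of all tested genes. The limit of the low-count filter holds for this count. Of those tested without mixed cells 0 of 8 were called. Since these markers served to define the mixed cells, their loss follows in part from that definition. Their sum was 473 and 289 CPM in MMPlow against 2013 and 2705 CPM in MMPhigh muscle, and 194, 318, 314 and 417 CPM without mixed cells.

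Hox genes followed the same course. Of 39 detected Hox genes 23 were tested and 17 rose with all muscle cells (median log2 fold 1.26), against 6.47% of all tested genes. Hoxb1 had 0 UMIs in MMPlow muscle, so it passed the low-count filter only through MMPhigh. Without mixed cells 0 of 19 were called (median 0.43), against 0.447% of all tested genes. Hoxb9 was at 31.0 and 31.3 CPM in MMPlow and 182 and 174 CPM in MMPhigh muscle, and at 20.7, 33.9, 19.7 and 41.0 CPM without mixed cells. Summed Hox levels were 656, 676, 640 and 955 CPM without mixed cells, so that MMPhigh 1 then lay below both MMPlow libraries.

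The 10 largest falls were Cdh5, Emcn, Kdr, Cldn5, S100a9, Flt1, Plvap, Plxnd1, Stfa1 and Pecam1, mostly endothelial genes. Cdh5 was at 55.8 and 71.1 CPM in MMPlow and 0 and 0.180 CPM in MMPhigh muscle. Emcn, an endothelial sialoprotein, was at 178 and 173 CPM against 0 and 0.900 CPM (log2 fold -7.81 ± 0.36, edgeR adjusted p = 9.90e-09), and at 85.2 and 71.1 against 0 and 1.67 CPM without mixed cells (adjusted p = 0.00231). The 10 genes were also called without the mixed cells. The falls were not particular to muscle. In mesenchyme Cdh5 was at 81.7 and 75.1 CPM in MMPlow and 1.45 and 0.211 CPM in MMPhigh, and Emcn at 148 and 161 against 4.98 and 3.79 CPM. S100a9 and Stfa1 are genes of granulocytes. The levels in muscle lay under those of all filtered cells of the same libraries. Of the 36 genes lower without mixed cells, 36 were below the level of all cells and 26 below that of macrophages in both MMPlow libraries. Endothelial markers summed to 2656 and 2566 CPM over all filtered MMPlow cells and to 120 and 103 CPM over all filtered MMPhigh cells. The part of free RNA in these falls was not tested beyond these levels.

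**Figure D5:**
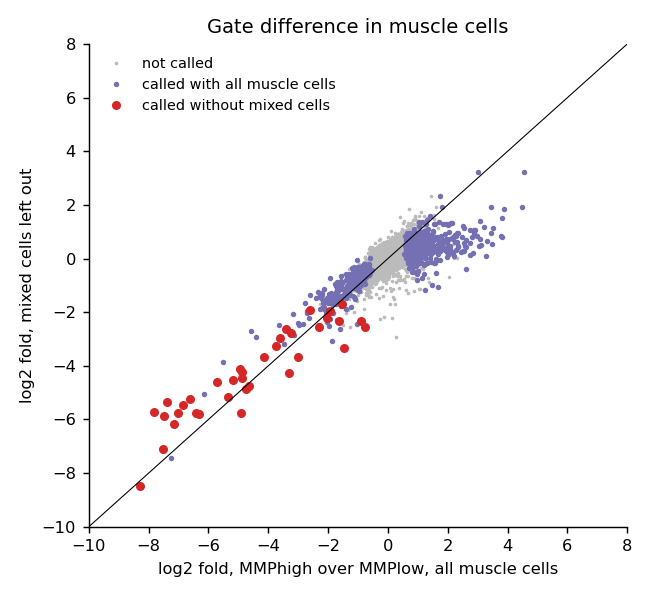
Log2 fold of MMPhigh over MMPlow in muscle cells, with all muscle cells (horizontal axis) and without mixed cells (vertical axis), for genes tested in both fits; the line marks equal values. Genes called higher with all cells (purple, right) lie mostly below the line, and the genes called without mixed cells (red) are all at negative values.

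The lists of muscle genes differed in how many members were called between gates with all muscle cells, where 10.2% of all tested genes were called, and edgeR called none of their members without mixed cells. Of the sarcomere genes outside the rule 24 were tested; only Tpm1 was called, lower by 0.59 ± 0.17 on the log2 scale with all muscle cells (1846 and 1941 CPM in MMPlow, 1255 and 1217 CPM in MMPhigh) and not called without mixed cells (0.01 ± 0.22). The list's median went from -0.45 with all cells to 0.31 without the mixed cells. Among Myog-positive cells, mixed ones included, Myl4, Acta1 and Tpm1 fell (3 of 24, median -0.67). Of 15 differentiation and fusion genes 15 were tested and 0 called by edgeR in either fit. Of 19 progenitor genes 14 were tested; Eya2 rose and Tcf15 fell with all cells, and 0 of 12 were called without mixed cells. Of the 14 genes of the dystrophin complex and of adhesion 10 were tested; Vangl2, Ncam1 and Cdh2 rose and Itga6, a laminin-binding integrin, fell with all cells, and 0 of 10 were called without mixed cells. Ncam1, an adhesion molecule of muscle and neurons, was at 604 and 545 CPM in MMPlow and 924 and 1079 CPM in MMPhigh muscle (log2 fold 0.83 ± 0.17), and had a log2 fold of 0.50 ± 0.19 without mixed cells. Cdh2 went from 0.69 to -0.34 on the same scale. Itga6 had log2 folds of -0.78 ± 0.21 and -0.94 ± 0.28 in the fits with and without mixed cells. Cacna2d1, a calcium channel subunit, and Ckb, brain creatine kinase, also rose with all cells, by 0.71 and 0.88, and had log2 folds of 0.38 and 0.36 without mixed cells. Myog among the rule genes stood at 777, 469, 828 and 683 CPM, and Ttn at 1991, 1543, 1419 and 1231 CPM, with all muscle cells.

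Among imprinted and immediate early genes, calls were likewise made with all muscle cells and not without the mixed ones. Igf2, a growth factor from an imprinted cluster, was at 556 and 623 CPM in MMPlow and 325 and 260 CPM in MMPhigh muscle (log2 fold -0.99 ± 0.18, edgeR adjusted p = 0.00157). H19 of the same cluster, Mest and Peg10 also fell, so that 4 of 14 imprinted genes were lower, against 3.70% of all tested genes. Without mixed cells Igf2 was at 571, 650, 571 and 372 CPM and 0 of 14 were called. Of 18 immediate early genes, which respond within minutes to stimulation, including to tissue dissociation, 8 were tested. Fos, Fosb, Egr1 and Btg2 rose, against 6.47% of all tested genes, and the limit of the low-count filter holds here too. Fos had 0 UMIs in MMPlow muscle and stood at 34.1 and 18.7 CPM in MMPhigh muscle (at least 8.62-fold higher), and was also higher in MMPhigh mesenchyme (17.2 and 40.9 against 1.62 and 2.00 CPM). Without mixed cells 0 of 6 immediate early genes were called, while the list's median log2 fold was 0.73 against 0.91 with all cells. Fos stood at 0, 0, 26.3 and 14.7 CPM there and was not tested, and Fosb had a log2 fold of 3.22 ± 0.84 there.

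Mitochondrial transcripts were compared because the sort was by mitochondrial membrane potential. Whether their levels follow that potential was not tested. The median mitochondrial share of muscle cells was 2.21% in MMPlow 1, 2.35% in MMPlow 2, 2.97% in MMPhigh 1 and 3.40% in MMPhigh 2. Both MMPhigh libraries lay above both MMPlow libraries, with means of 3.19% ± 0.305 (SD, n = 2) against 2.28% ± 0.0980 (SD, n = 2), and p was 0.333 by an exact two-sided test over permuted libraries, the lowest this design can reach. Without mixed cells the medians were 2.15%, 2.34%, 3.38% and 3.40%. With at least 20 UMIs of the rule genes per 10000 the gates overlapped (p = 0.667, exact permutation test). Over all filtered cells, the 13 mitochondrially encoded genes summed to 38480, 39957, 37137 and 36400 CPM, with both MMPhigh libraries below both MMPlow libraries, whereas in muscle they summed to 24014, 25895, 34445 and 35372 CPM. The sums were also higher in both MMPhigh libraries in mesenchyme, at 28926 and 33120 against 34844 and 37966 CPM, and in macrophages, at 36809 and 34524 against 46510 and 47651 CPM. Of the 13 genes mt-Atp6, mt-Co3 and mt-Co2 were called higher in MMPhigh muscle, against 6.47% of all tested genes. The gene mt-Atp6, a subunit of ATP synthase, was at 3683 and 4153 against 7106 and 6994 CPM (log2 fold 0.87 ± 0.18, edgeR adjusted p = 0.00421). None of the 13 was called without mixed cells, where mt-Atp6 had a log2 fold of 1.08 ± 0.22 and an adjusted p of 0.0784. Of 84 nuclear genes of oxidative phosphorylation 78 were tested and 0 called by edgeR, with a median log2 fold of -0.12.

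A model over muscle and mesenchyme sums of the same libraries tested where the gate difference in muscle departed from that in mesenchyme. It called 239 of 14968 genes (1.60%), 171 with a more positive difference in muscle (1.14%) and 68 with a more negative one (0.454%). The count rested on single libraries, at 58 without MMPlow 1, 44 without MMPlow 2, 370 without MMPhigh 1 and 587 without MMPhigh 2. Without mixed cells it called 95 of 14344 (0.662%), 53 more positive (0.369%) and 42 more negative (0.293%). Only muscle cells were left out there, and the mesenchyme sums kept all 1048, 1317, 338 and 385 cells, unscreened for markers of other types. The median difference of the neural markers went from 0.38 to -1.84, with Dcx and Tubb3 called more negative. What this unequal screening adds to the other calls was not tested. In mesenchyme by itself, 2354 of 14319 genes (16.4%) were called between the gates, 964 higher (6.73%) and 1390 lower (9.71%) in MMPhigh. Of the 1025 genes called between gates with all muscle cells, 1003 were tested in mesenchyme. There 577 were called and 955 had the same direction as in muscle. With all muscle cells, 8 of 10 macrophage markers were more positive in muscle, and 0 of 10 were called without mixed cells, which these markers helped to define. Summed macrophage markers in muscle were 188, 199, 874 and 403 CPM with all cells and 181, 183, 113 and 129 CPM without mixed cells.

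Some genes of the muscle lists were among the calls made without mixed cells, where only the muscle sums were screened for other markers. Mef2c was at 943, 601, 1036 and 687 CPM in muscle without mixed cells (895, 627, 629 and 631 CPM with them) and at 267, 277, 104 and 91.0 CPM in mesenchyme, lower in both MMPhigh mesenchyme sums. It was also at 993 to 1370 CPM in macrophages. The difference of the log2 folds was 1.66 ± 0.23 without mixed cells (edgeR adjusted p = 0.00371; 1.22 ± 0.16 with all cells). Mef2a gave 1.03 ± 0.19 and Smyd1, a chaperone-linked methyltransferase of the sarcomere, 2.18 ± 0.43 without mixed cells, and both were also called with all cells. Tpm1, Nexn and Myom1 were called only without the mixed cells. None of these 6 genes was called between the gates in muscle without mixed cells. In mesenchyme, Tpm1 was at 1192, 1134, 742 and 739 CPM, and all 6 genes were lower in both MMPhigh libraries. Markers of other cell types moved with these mesenchyme levels. Smooth muscle markers summed to 1121 and 1096 CPM in MMPlow and 391 and 402 CPM in MMPhigh mesenchyme, and endothelial markers to 811 and 755 against 42.8 and 21.8 CPM, and their part in the differences was not tested. Of the 13 mitochondrially encoded genes mt-Nd6, mt-Nd4, mt-Atp6 and mt-Co3 were more positive in muscle without mixed cells. The differences were 1.62, 0.60, 0.51 and 0.48 on the log2 scale, and 0.369% of all genes tested there were more positive. With all cells 0 of the 13 were called (median 0.22).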

How the data were processed

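Droplet single-cell RNA libraries of 4 sorted samples, 2 MMPlow and 2 MMPhigh, were read as UMI counts per gene and cell, unnormalised, as deposited by the authors. The file headers name Cell Ranger 7.0.1, and the submitters' processing notes name Cell Ranger 2.1.1 and mm10; which made the counts is not settled here. The libraries held 59928, 23715, 13939 and 4288 barcodes. The members and gene lists were chosen with earlier results of these data known.

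Counts were summed per library over muscle cells, over their Myog-positive and Myog-negative cells, or over mesenchyme cells, and tested with edgeR 4.0.16 (TMM scaling, filterByExpr, robust quasi-likelihood fit, Benjamini-Hochberg adjustment over all genes tested, threshold 0.05) in R 4.3.3. DESeq2 1.42.0 was an alternative. Shares were compared with exact permutation tests, and thinning used seed 1. Scrublet ran through scanpy 1.11.5. The 9 rule genes stayed in the fits without a test. Genes were named by size of change, 10 in each direction (5 for the muscle against mesenchyme model), leaving out rule genes, unnamed gene models, Xist and Y-linked genes; list genes were added, and any gene named outside this was chosen after its values were seen. On simulated data the gate test called 43% of genes set to a log2 change of 1 and 94% of those set to 2, the Myog test 66% and 92%, and the muscle against mesenchyme model 30% and 72%. The simulation gave all genes a common dispersion and all sums the same base profile, with all muscle cells. Recovery with the spread of each real gene, or without mixed cells, was not simulated. The labels give both gates replicate numbers 1 and 2, and deviations of same-numbered libraries correlated at 0.0275 over 10088 genes, so they were not treated as pairs. This correlation cannot show whether same-numbered libraries came from the same embryos.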

Additional observations from a re-analysis of the deposited data

Results flagged for a closer look

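The gate difference departed from that in mesenchyme, by the test of the difference itself, for 239 genes with all muscle cells and 95 without the mixed cells; with all cells the count was 44 to 587 when 1 library was left out. By the rule of size, the 5 most positive differences of log2 folds were those of Sgcz at 4.91, Ano4 at 4.12, Ntrk3 at 3.90, Cntnap2 at 2.83 and Tenm2 at 2.45. Sgcz, a sarcoglycan, stood at 8.27 and 1.42 CPM in MMPlow and at 121 and 142 CPM in MMPhigh muscle, against 43.4, 39.3, 31.2 and 51.7 CPM in mesenchyme. Without mixed cells it was still called, at 3.06 ± 0.79 (SE, edgeR adjusted p = 0.0407), with levels of 2.58 and 1.62 CPM in MMPlow and 3.29 and 26.4 CPM in MMPhigh muscle, so that only MMPhigh 2 then stood above MMPlow by a wide margin. Ntrk3, Cntnap2 and Tenm2 were not called without mixed cells, at 2.54 ± 0.79, 2.77 ± 1.74 and 0.63 ± 0.63; the SEs were larger than with all cells, and of the 3 the estimate shrank most for Tenm2. Ano4 was not called there either. It had 1 UMI in MMPlow muscle with all cells and 0 without the mixed ones, so its fitted difference depends on the prior count, and none is given without them.

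The 5 most negative were Emcn at -2.68, Ldb2 at -2.28, Ets1 at -2.10, Fli1 at -1.99 and Prex2 at -1.93, genes that are also active in endothelium. Fli1, an ETS-family factor, stood at 147 and 152 CPM in MMPlow and at 36.3 and 26.7 CPM in MMPhigh muscle, against 284, 269, 200 and 223 CPM in mesenchyme. Ldb2, Fli1 and Prex2 were called without mixed cells, at -1.43, -2.22 and -1.23, and Emcn and Ets1 were not. Of the 10 genes, 4 thus kept their call without mixed cells. The mesenchyme sums were not screened for markers of other types in either fit. With muscle cells that held 2 or more endothelial or macrophage markers left out instead, the differences of Emcn and Ldb2 turned positive.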

How the results depend on the processing

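The higher muscle share and mitochondrial share in MMPhigh and the lower cell cycle level of Myog-positive cells kept their direction in every alternative run, with share differences of 2.25 to 3.42 and mitochondrial differences of 0.695 to 1.13 percentage points without each library. The exact permutation tests of the shares (2 against 2 libraries) and the sign-flip test of the cell cycle level (4 pairs) cannot pass a threshold of 0.05.

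Between gates, 1025 genes were called. That was 10.2% of 10079 tested, and the number tested differed between runs. DESeq2 called 553 of 10079 (5.49%), and a rule sum of 20 per 10000 gave 439 of 8251 (5.32%). Thinning to 2000 UMIs gave 56 of 4281 (1.31%) and leaving out mixed cells 36 of 8045 (0.447%). Leaving out cells with a UMI of 2 or more endothelial or macrophage markers gave 1 of 6815 (0.0147%), with 611 at an unadjusted p under 0.05. Without each library the count was 861 to 1137. With the replicate number as a block, 1285 genes were called (111 without mixed cells). Whether same-numbered libraries form pairs is not given by the labels.

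In the Myog split, 501 of 6900 genes (7.26%) were called. DESeq2 called 306 of 6900 (4.43%), and no low-count filter gave 1012 of 20591 (4.91%). A rule sum of 20 gave 102 of 3929 (2.60%), and leaving out endothelial- or macrophage-marker cells 125 of 1939 (6.45%). Without each library the count was 220 to 720, 220 being without MMPhigh 2, the deepest. With Myog detected after thinning, 406 were called, 211 of them among the 496 called genes tested there, the median log2 fold of the genes called higher was 0.62 in place of 1.58, and 3 named genes reversed, namely Srrm4 at -0.26, Cadps at -0.68 and Ccser1 at -0.46.

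In the muscle against mesenchyme model, 239 of 14968 genes (1.60%) were called. DESeq2 called 72 of 14968 (0.481%), no filter gave 548 of 24133 (2.27%), and at least 5000 UMIs per cell 94 of 13966 (0.673%). Leaving out endothelial- or macrophage-marker muscle cells gave 17 of 13837 (0.123%). Leaving out the highest 6% of doublet scores gave 446 of 14429 (3.09%), and leaving out mixed muscle cells 95 of 14344 (0.662%). Without each library the count was 44 to 587, with 58 without MMPlow 1, 44 without MMPlow 2, 370 without MMPhigh 1 and 587 without MMPhigh 2. Emcn reversed to 0.36 and Ldb2 to 1.30 with endothelial- or macrophage-marker cells left out. Emcn is among the endothelial markers used to choose the cells left out, so its value follows in part from that choice. These fits also held fewer muscle cells, and the cause of the reversals was not tested.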

Other observations

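Of 84 nuclear genes of oxidative phosphorylation, 49 were above mesenchyme in all 4 libraries in the muscle cells that were not mixed and 4 below, and 29 were above macrophages in all 4. Over all genes 7.71% were above mesenchyme and 26.6% below in all 4. No such share over all genes was taken for macrophages, so counts above macrophages are descriptions only. The differences were small, with a median ratio of 1.13 (1 CPM added to each level), against 1.28 for ribosomal protein genes and 0.895 over all genes. The 13 mitochondrially encoded genes did not follow, with 0 above and 0 below mesenchyme in all 4 libraries. Of 12 muscle metabolism genes 8 were above mesenchyme in all 4 libraries and 0 below. Of 14 imprinted genes 7 were above mesenchyme and 3 below, and 14 above macrophages, in all 4. Cdkn1c was the clearest case at 5407, 5096, 8410 and 4235 CPM in these cells, against 608, 608, 1234 and 696 CPM in mesenchyme. Smooth muscle markers summed to 987, 787, 1661 and 898 CPM in muscle (926 CPM in MMPhigh 1 with mixed cells) and 1121, 1096, 391 and 402 CPM in mesenchyme. Mesenchyme cells were chosen to lack muscle factors, so these values describe the classes and were not tested.

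Thinned to 2000 UMIs, Mki67, a marker of cycling cells, had a UMI in 27.8%, 25.3%, 16.0% and 22.2% of muscle cells, 35.2%, 38.6%, 26.6% and 36.6% of mesenchyme cells and 40.3%, 44.0%, 27.0% and 33.5% of macrophages. Muscle was lowest of the 3 classes in each library. The unthinned shares in muscle were 47.2%, 57.1%, 32.8% and 62.2%, again the lowest of the 3 classes. Myf6, the fourth muscle factor of the family and not part of the rule, was found in 13.9%, 12.1%, 10.1% and 25.2% of muscle cells and, thinned, in 6.94%, 4.40%, 4.20% and 5.19%. It was found in at most 1.04% of the mesenchyme cells of any library.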
